A study of Homo sapiens with 8 samples.

Results

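The MYC locus was taken as all TAZ peaks on chromosome 8 whose summit lay within 1 Mb of an annotated transcription start site (TSS) of MYC, including the peaks inside the neighbouring gene PVT1. It held 131 of the 55334 peaks in 4 peak lists, which merged into 72 of 39503 sites when peaks that shared at least 1 bp were joined. The window ran over 2004 kb (hg38, chr8:126735434-128739073). MYC itself lies at chr8:127735434-127742951 on the plus strand and PVT1 at chr8:127794526-128187101, also on the plus strand. GENCODE lists 15 MYC transcripts with 14 distinct TSS, and distances below are counted in kb from the first of them, with the direction of MYC transcription as downstream.

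MYC encodes a basic helix-loop-helix transcription factor that pairs with MAX and drives growth, ribosome production and cell-cycle entry. It sits in a large interval of chromosome band 8q24 with few protein-coding genes, where distal enhancers in the upstream gene desert and inside the long non-coding RNA gene PVT1 contact the MYC promoter in a cell-type-dependent manner. TAZ is a co-activator of the Hippo pathway with no DNA-binding domain of its own. It reaches chromatin mainly through TEAD factors, and TEAD sites in enhancers often neighbour sites of AP-1, the FOS and JUN dimer.

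TAZ binding was profiled by ChIP-seq in MCF10A, an immortalized but untransformed epithelial line from human breast. In every sample the cells carried TAZ-4SA, an activated TAZ with serine-to-alanine changes that is switched on by doxycycline (Dox). Cells received no Dox, or 0.05 µg/ml Dox over 24, 48 or 72 h, and each of these 4 conditions had 1 TAZ and 1 IgG library, 8 libraries in all. Both libraries of a condition point to 1 shared peak list in the labels, and whether peaks were called against IgG is not stated. With 1 library per condition no difference between conditions could be tested, so all values below describe these libraries and intervals cover counting error only. A peak that is missing from a list was not called there, which differs from a measured absence of binding.

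The depth of the lists differed. The lowest local background in a list, which tracks its sequencing depth, was 1.49 fragments without Dox, 1.42 after 24 h, 2.84 after 48 h and 2.01 after 72 h. The order of the lists by depth was therefore not their order by number of peaks.

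The number of TAZ peaks around MYC was higher in each later list. It was 6 without Dox, 17 after 24 h, 38 after 48 h and 70 after 72 h. Over the whole genome the lists held 2431, 2469, 11767 and 38667 peaks. The step from No Dox to 24 h was thus 2.83 times as many peaks around MYC against 1.02 times over the genome. The make-up of these 2 genome lists differed, with 71.4% of peaks without Dox and 28.9% at 24 h within 3 kb of any TSS. The step was not compared with that of distal peaks alone, so it is not shown to be particular to the locus. The 2 later steps were smaller at the locus than elsewhere, 2.24 against 4.77 times from 24 to 48 h and 1.84 against 3.29 times from 48 to 72 h. The fragments and background of each peak were scaled to the coverage of the shallowest list, with 1 common −log10 p floor of 5.27. The locus held 6, 17, 36 and 67 peaks after this scaling, which can remove peaks but not add them.

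**Figure D1:**
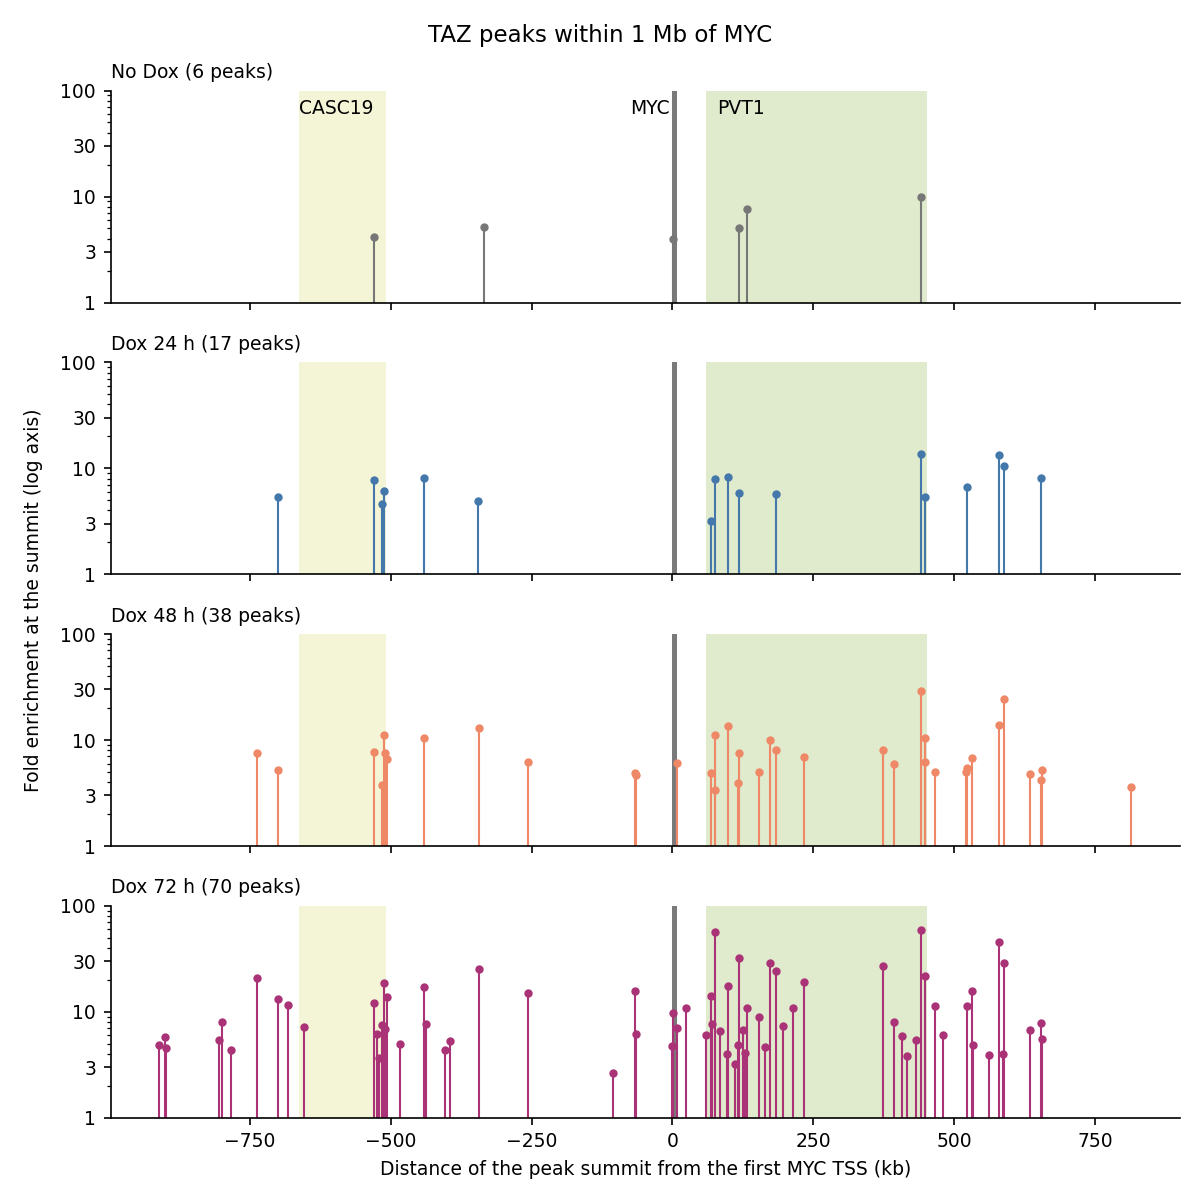
TAZ peaks within 1 Mb of MYC in the 4 lists, 1 panel per list. The x axis is the distance of each summit from the first MYC TSS in kb, the y axis is the fold enrichment over local background on a log axis, and the shaded spans are CASC19, MYC and PVT1. Peaks number 6, 17, 38 and 70 from top to bottom, the strongest one sits at the 3′ end of PVT1 in every list, and the MYC gene itself holds a peak in the top and bottom panels only.

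The strength of the peaks is given here as fold enrichment, the fragments over the summit divided by the local background after 1 was added to each. Its median over the peaks of the locus was 5.14 without Dox, 6.73 after 24 h, 6.43 after 48 h and 7.52 after 72 h, and its maximum was 9.98, 13.5, 29.3 and 59.5. Medians over all peaks of the genome were 5.57, 7.48, 6.61 and 7.17. The typical peak of the locus was therefore about as strong as that of the genome, and what stood out was a small set of distal sites.

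The MYC promoter was called in 2 of the 4 lists. Without Dox a peak of 611 bp (chr8:127735536-127736146) had a fold enrichment of 3.95, with 17 fragments (95% Poisson interval 9.9 to 27.2) over a background of 3.56. At 72 h a single peak of 5402 bp (chr8:127734717-127740118) covered most of the gene with a fold enrichment of 9.67, with 54 fragments (40.6 to 70.5) over 4.69. Its summit lay 7 bp from a MYC TSS in an exon, and neither a TEAD nor an AP-1 word stood within 100 bp of it. The 2 fragment intervals do not overlap, with the 72 h list the deeper one, and the fold enrichment at 72 h was 2.45 times that without Dox.

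No MYC promoter peak was called at 24 or 48 h. The No Dox signal, scaled to the background coverage of those lists, would have given a −log10 p of 6.93 at 24 h and 12.3 at 48 h, while the weakest peaks that were called had 5.27 and 4.52. A signal of exactly the observed No Dox size would therefore have passed the lowest p of both lists. The same held for a site in a PVT1 intron 131.8 kb downstream, which had a fold enrichment of 7.64 without Dox and 10.9 at 72 h and none between. The scaling carries no counting error, and the low end of the fragment interval at the MYC promoter, 9.9, was not scaled. Whether the missing calls reflect less binding was not tested.

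Close to the gene, 3 more sites were called. A promoter of CASC11, a long non-coding RNA gene on the minus strand whose span overlaps MYC, held a peak 1.4 kb upstream of MYC. It was called in the 72 h list alone, with a fold enrichment of 4.72. This was the one site of the locus whose summit window, 100 bp to either side, matched the CTCF core, the motif of an insulator and loop-anchor protein. A site 7.8 kb downstream, just past the 3′ end of MYC, had 6.13 at 48 h and 6.97 at 72 h and held an AP-1 word. A site 24.9 kb downstream had 10.8 in the 72 h list alone.

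The first promoter of PVT1 was called late. Its peak, with a summit 5 bp from the TSS, appeared in the 72 h list alone with a fold enrichment of 6.05 and 45 fragments (32.8 to 60.2) over 6.61. Its window had a GC content of 83.6%, against a median of 46.8% over the 72 h peaks of the locus. Thus neither the MYC promoter nor the first promoter of PVT1 had a TAZ peak at 24 or 48 h, while 17 and 38 peaks were called around them.

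The body of PVT1 held the 2 strongest TAZ sites of the locus at 72 h, while its typical site was about as strong as elsewhere. The median 72 h fold enrichment was 7.95 in PVT1 with its promoter and 8.32 from MYC to PVT1. It was 7.22 upstream of MYC and 7.33 beyond PVT1. Peaks with summits inside PVT1 numbered 3 without Dox, 7 after 24 h, 15 after 48 h and 26 after 72 h. PVT1 spans 19.7% of the window with its promoter and held 38.6% of the 72 h peaks, a density of 6.83 sites per 100 kb. The 59.1 kb from 3 kb upstream of MYC to 3 kb before PVT1 were about as dense, with 4 sites or 6.77 per 100 kb. These 4 include the sites at a CASC11 promoter and at the MYC promoter. The sequence upstream of MYC had 2.81 and the sequence beyond PVT1 had 2.36 sites per 100 kb. Among the 5157 genes of at least 100 kb, PVT1 had more peaks per kb than 96.7% of genes without Dox, 99.7% after 24 h, 99.4% after 48 h and 98.8% after 72 h.

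The strongest site of the locus in every list lay in the last part of PVT1, 441.3 kb downstream of MYC (chr8:128176087-128177874), in an intron. Its fold enrichment was 9.98 without Dox, 13.5 after 24 h, 29.3 after 48 h and 59.5 after 72 h. Fragments over the summit numbered 50 (37.1 to 65.9), 62 (47.5 to 79.5), 238 (209 to 270) and 340 (305 to 378). It was thus above background before induction and 5.96 times as strong at 72 h as without Dox. Against all peaks of each list it ranked above 84.5%, 91.3%, 99.4% and 99.7%, and its window held the TEAD consensus in 2 places.

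A second site in an intron near the 5′ end of PVT1, 74.8 kb downstream of MYC (chr8:127807655-127812286), had 7.92 after 24 h, 11.2 after 48 h and 57.2 after 72 h. Fragments over it numbered 44 (32 to 59.1), 136 (114 to 161) and 338 (303 to 376). Its ratio of fold enrichment from 48 to 72 h, 5.12, was the highest of the locus. The background there was 11.3 at 48 h, the highest of the locus in that list, and 4.93 at 72 h. The fold enrichment thus differed by more than the fragments did. The 72 h peak was 4632 bp wide against 1022 bp at 24 h, and 2 separate peaks of the 48 h list lay under it. Neither a TEAD nor an AP-1 word stood in its summit window.

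A site 118.8 kb downstream of MYC, 171 bp from an internal TSS of PVT1, was called in all 4 lists. Its fold enrichment was 5.09 without Dox, 5.89 after 24 h, 7.53 after 48 h and 31.9 after 72 h, and it held 1 TEAD word. Most of the difference thus lay between the last 2 lists, where the ratio was 4.23. The site 441.3 kb downstream, in contrast, had ratios of 1.35, 2.18 and 2.03 over the 3 steps.

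The other sites of PVT1 that were called at 24 h followed these at lower strength. The site at 97.9 kb, with 2 TEAD words, had 8.26 after 24 h, 13.5 after 48 h and 17.7 after 72 h. The site at 183.4 kb had 5.78, 8.07 and 24.5, and the site at 447.9 kb, with 1 AP-1 and 1 RUNX word, had 5.38, 10.5 and 21.7. The site at 68.0 kb, in an exon of PVT1, was the weakest 24 h peak of the locus with 3.16, and had 4.87 and 14.1 later. All 4 had their highest value at 72 h.

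Among the PVT1 sites first called at 48 h, 2 were among the 10 strongest of the locus at 72 h. The site at 172.6 kb had 9.92 at 48 h and 29.1 at 72 h. The site at 373.6 kb, which held an AP-1 word, had 8.07 and 27.3. At internal PVT1 start sites 4 weaker sites were called. Those at 116.3 and 153.8 kb had 3.93 and 5.03 at 48 h and 4.85 and 9 at 72 h. Those at 110.2 and 124.5 kb were called at 72 h alone, with 3.23 and 6.7. All 4 lay below the 10 strongest sites. A stretch of 139 kb between the sites at 234.2 and 373.6 kb had no peak in any list, although it lies inside PVT1.

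Beyond the 3′ end of PVT1 there were 13 sites, none of them called without Dox. They lay in intergenic sequence, in or near an unnamed long non-coding RNA gene (ENSG00000286034), or, in 1 case, in LINC00824. The site 579.3 kb downstream had 13.2 after 24 h, 14.0 after 48 h and 46.0 after 72 h and held 1 TEAD word. Its neighbour at 589.1 kb, 1445 bp from the TSS of that RNA gene, had 10.5, 24.6 and 28.9. The ratios of fold enrichment, later over earlier list, were 1.06 and 3.29 at the first site and 2.36 and 1.17 at the second. Fragments numbered 47, 148 and 227 at the first site, over backgrounds of 2.64, 9.65 and 3.95. At the second they numbered 48, 184 and 199, over 3.68, 6.51 and 5.92. The fragment intervals of the pair overlapped in each of these lists, so a difference in timing was not shown.

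Also beyond PVT1, the site at 653.5 kb had 8.13 after 24 h, 4.23 after 48 h and 7.9 after 72 h. Its fragments were 26 (17 to 38.1), 35 (24.4 to 48.7) and 56 (42.3 to 72.7), so the lower fold enrichment at 48 h stood over a background of 7.51 against 2.32 at 24 h. The site at 523.3 kb, with a TEAD word, had 6.73, 5.47 and 11.4. The last site, 814.1 kb downstream in an intron of LINC00824, another long non-coding RNA gene, was called at 48 h alone with 3.62. Its signal, scaled to the 72 h list without counting error, would have passed there with a −log10 p of 6.36 against a floor of 3.94.

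Upstream of MYC all sites lay inside non-coding RNA genes of the 8q24 desert, but such genes cover most of this sequence. PCAT1 alone is 863 kb long, runs past the upstream edge of the window and held 24 of the sites. Whether sites were denser in these genes than their length would give was not tested. There were 28 sites, with 2 peaks without Dox, 6 after 24 h, 12 after 48 h and 27 after 72 h. The CASC19 gene contained 7 sites, and 1 of them, 529.0 kb upstream and 275 bp from a CASC19 TSS, was called in all 4 lists. Its fold enrichment was 4.17 without Dox, 7.78 after 24 h, 7.78 after 48 h and 12.2 after 72 h. Close to it, the site 512.6 kb upstream had 6.13 after 24 h, 11.2 after 48 h and 18.6 after 72 h, and the site 515.5 kb upstream, with a TEAD word, had 4.61, 3.76 and 7.43.

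Nearer to MYC, 4 sites lay inside POU5F1B, a retrogene copy of POU5F1 and with MYC 1 of the 2 protein-coding genes with a TSS in the window. The site 344.0 kb upstream, in an intron shared by POU5F1B, CASC8 and PCAT1, had 4.89 after 24 h, 13.1 after 48 h and 25.5 after 72 h, and was the strongest upstream site in the 48 and 72 h lists. Close to it, a peak inside CCAT2, a non-coding RNA named for colon cancer, was called without Dox alone, at 334.1 kb upstream with 5.2. Its 20 fragments (12.2 to 30.9), scaled to the later lists, would have given −log10 p values of 10.4, 19 and 14.1, all above the floors of those lists. The scaling used the 20 fragments alone and not their interval.

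The remaining upstream sites called at 24 h were at 440.4 kb, with 8.18, 10.5 and 17.0 over the 3 Dox lists and a TEAD word, and at 699.4 kb, with 5.36, 5.2 and 13.2. Both had their highest value at 72 h. No peak was called between 256.6 and 105.3 kb upstream, a gap of 151 kb. The outermost sites of the window lay 910.8 kb upstream, with a fold enrichment of 4.89 at 72 h, and 814.1 kb downstream. Just outside it, the nearest 72 h peaks lay 1106 kb upstream with 6.37 and 1429 kb downstream with 9.56, so no member stood close to the edge.

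**Figure D2:**
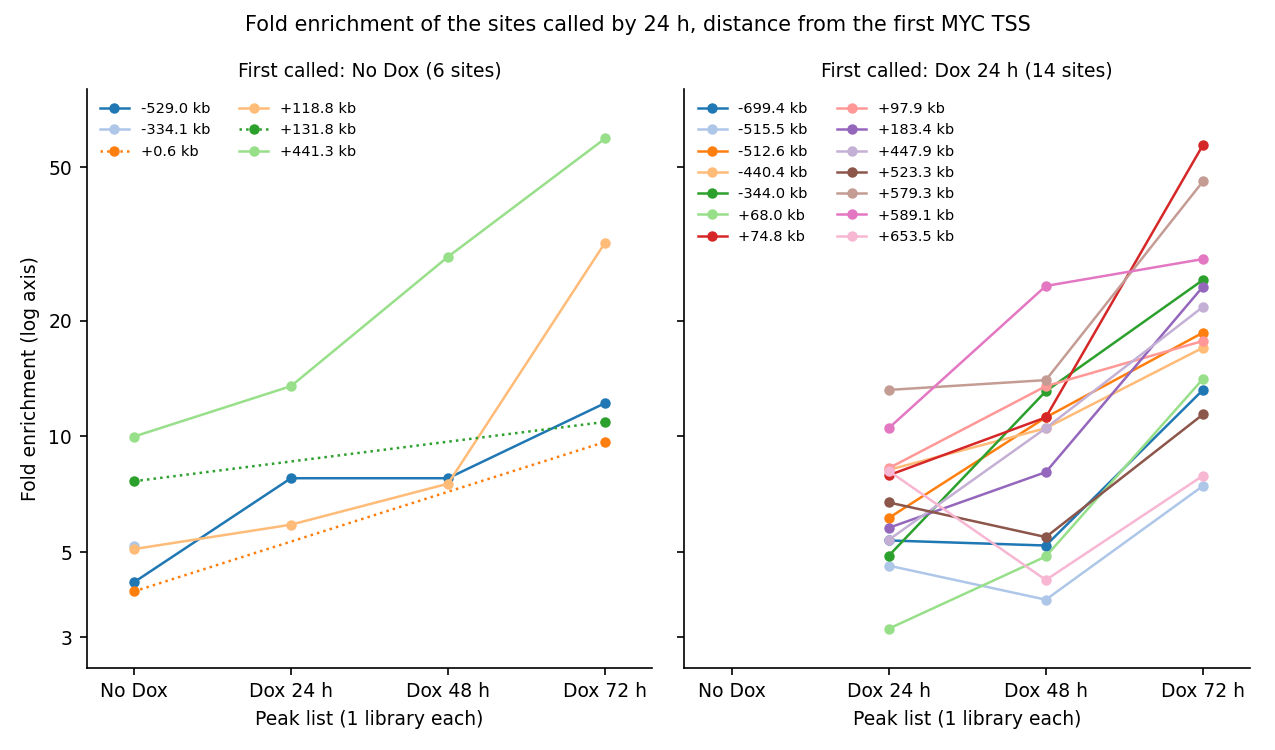
Fold enrichment of the 20 sites of the MYC locus called without Dox (left, 6 sites) or first at 24 h (right, 14 sites), by distance from the first MYC TSS. The x axis is the peak list and the y axis the fold enrichment on a log axis, a dotted line joins lists between which the site was not called, and each point is 1 library. The site at +441.3 kb reaches 59.5 and the site at +74.8 kb 57.2 at 72 h.

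By time of first call, the locus was weighted toward the 24 h list. Of the 72 sites, 6 were called without Dox, which is 8.33% (exact 95% interval 3.12 to 17.3) against 6.09% of all sites of the genome. At 24 h 14 sites were new, 19.4% (11.1 to 30.5) against 4.93%. At 48 h 18 were new, 25% (15.5 to 36.6) against 22.5%. At 72 h 34 were new, 47.2% (35.3 to 59.3) against 66.5%. The 24 h share lay above and the 72 h share below the genome value by more than counting error, while the other 2 intervals included it. Sites of 1 locus are not independent, and their joint spread over replicates is unknown. The genome sites were not limited to distal ones, and the shares were not recomputed with local background made equal. What part of the difference follows from gene content or background was not tested.

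Called sites persisted. All 17 sites with a 24 h peak were called again at 48 h and at 72 h, against 92.4% and 96.7% over the genome. Of the 35 sites with a 48 h peak, 34 were called at 72 h, or 97.1% against 95.2%. Of the 6 No Dox sites, 3 or 50% were called after 24 h, 3 after 48 h and 5 or 83.3% after 72 h, against 20.7%, 33.7% and 89.2% over the genome. Sites in all 4 lists numbered 3, which is 4.17% (0.868 to 11.7) against 1.1% of all sites.

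**Figure D3:**
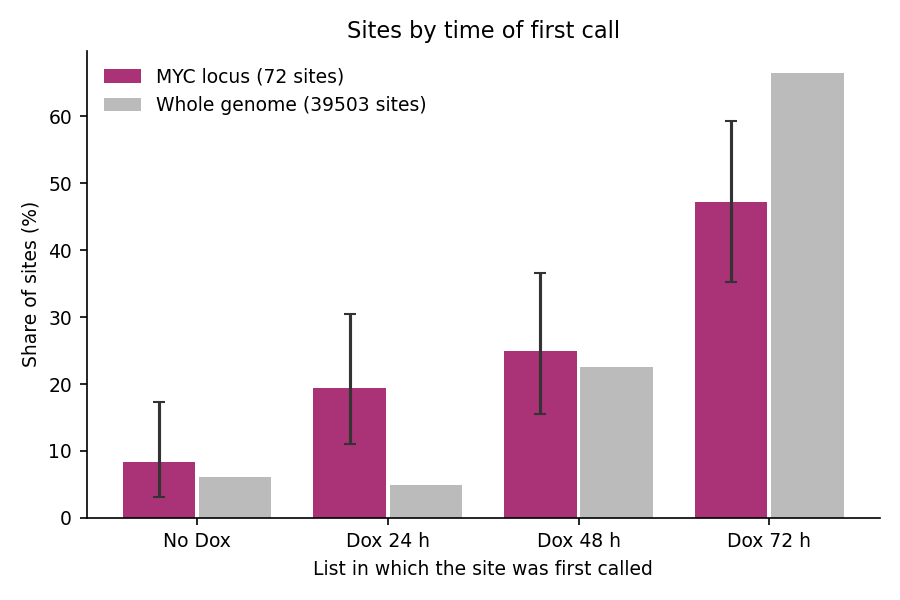
Share of sites (y axis, %) by the list in which they were first called (x axis), for the 72 sites of the MYC locus and all 39503 sites of the genome. Error bars are exact 95% binomial intervals that cover counting error only. The locus share is 19.4% against 4.93% at 24 h and 47.2% against 66.5% at 72 h.

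The increase in strength between Dox lists at sites called in both was close to that of the genome. From 24 to 48 h the median ratio of fold enrichment over 17 sites was 1.4, against 1.45 over all sites, and 3 sites or 17.6% were at least 2 times as strong, against 18.8%. From 48 to 72 h the median over 34 sites was 2.05 against 1.88, and 18 sites or 52.9% passed 2 times, against 44.9%. From 24 to 72 h the median was 3.03 against 2.82, and 13 of 17 sites or 76.5% passed, against 74.7%. Each of these 3 shares was within 10 percentage points of its genome value. From No Dox to 72 h only 5 sites were called in both, with a median ratio of 2.93 against 1.84, and 4 of them or 80% passed 2 times, against 47.1%.

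By median, sites first called at 24 h were the strongest class at 72 h and those first called at 72 h the weakest. The No Dox and 48 h classes lay close together between them. The median 72 h fold enrichment was 12.2 over the 5 No Dox sites still called, 18.1 over the 14 sites first called at 24 h, 11.4 over the 17 first called at 48 h and 5.38 over the 34 first called at 72 h. Genome values in the same order were 11.7, 20.9, 11.6 and 6.03. The order of the 4 classes was the same at the locus and over the genome. The 34 new sites at 72 h ranged from 2.65 to 11.5, and none of them was among the 10 strongest of the locus.

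The window of MYC held many TAZ peaks compared with those of other genes. Among 20033 protein-coding genes, the number of peaks within 1 Mb of a TSS was higher than for MYC at 3012 genes without Dox, at 1 gene after 24 h, at 11 genes after 48 h and at 2105 genes after 72 h. The medians over genes were 2, 2, 9 and 39 peaks. The 1 gene with a higher number at 24 h, with 19 peaks, was POU5F1B, whose window overlaps that of MYC. Windows of neighbouring genes share peaks, so these ranks are descriptions. The genes at least 2 Mb away whose 4 counts were nearest to those of MYC were PDE6A (7, 11, 30 and 85 peaks), CRIPT, SYT14, PKP1 and MRGPRD, all with 10 to 12 peaks at 24 h against 17 for MYC.

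The local background was also high across the locus. At every one of the 131 peaks it lay above the median of the distal peaks of its list, where distal means more than 3 kb from any TSS. The medians were 3.68 fragments at the locus against 2.28 at distal peaks without Dox, 2.79 against 2.01 at 24 h, 6.97 against 4.29 at 48 h and 4.93 against 3.16 at 72 h, which is 1.39 to 1.62 times as high. A higher background goes with more fragments for the same fold enrichment and so with a lower p. When each peak of the genome was scaled to the lowest background of its list, an alternative chosen after seeing the data, the locus kept 4, 15, 36 and 68 peaks. Over the genome 1951 of 2431, 2264 of 2469, 11215 of 11767 and 36906 of 38667 peaks were kept. The number at the locus was then passed by 4069, 1, 8 and 1652 genes. MCF10A is known to carry extra copies of the MYC region. The copy number was not measured here, and its part in the background and the peak counts was not tested.

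**Figure D4:**
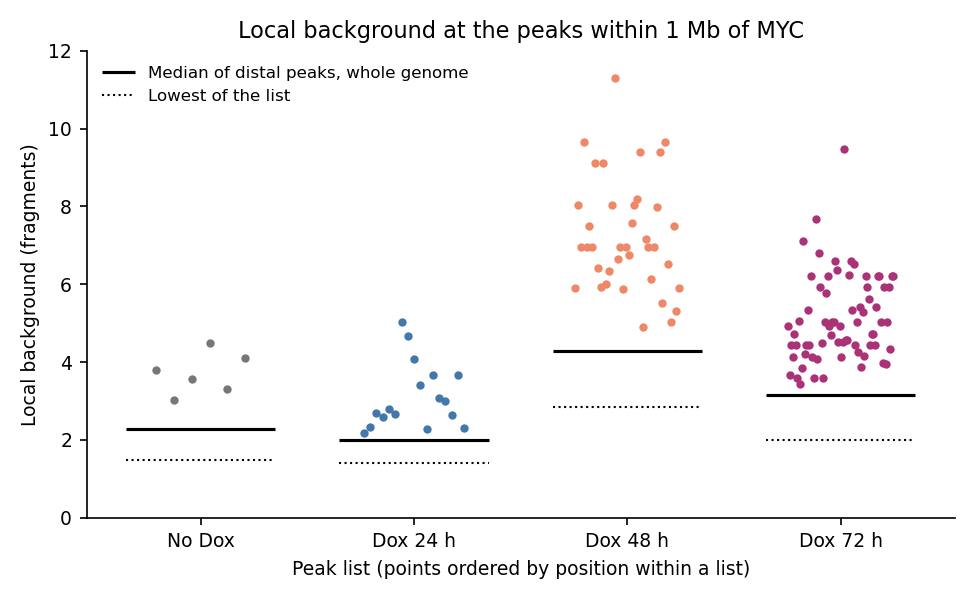
Local background in fragments (y axis) at each of the 131 peaks of the MYC locus, by list (x axis), with points ordered by position. The solid bars are the medians over distal peaks of the genome (2.28, 2.01, 4.29 and 3.16) and the dotted bars the lowest background of each list, and every point lies above the solid bar of its list.

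Motif words were searched on both strands within 100 bp of each summit. The TEAD consensus (ACATTCC or GCATTCC) stood at 1 of 6 peaks without Dox, 7 of 17 after 24 h, 16 of 38 after 48 h and 22 of 70 after 72 h. These shares were 16.7%, 41.2% (exact 95% interval 18.4 to 67.1), 42.1% (26.3 to 59.2) and 31.4% (20.9 to 43.6). Over all distal peaks of the genome they were 29.6%, 52.8%, 42.0% and 35.1%, inside the interval of the locus in each list. In windows 1 kb to either side of the locus summits the share was 8.33%, 8.82%, 5.26% and 2.86%, so from 24 h on the word was several times as frequent at summits as beside them.

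The shorter TEAD core (CATTCC), which every TEAD match contains, stood at 2, 8, 21 and 32 locus peaks, or 33.3%, 47.1%, 55.3% and 45.7%, against 36.7%, 60.5%, 50.6% and 44% of distal peaks. AP-1 words (TGACTCA or TGAGTCA) were present at 0 of 6 (exact upper limit 45.9%), 3 of 17, 5 of 38 and 10 of 70 peaks. The shares of 17.6%, 13.2% and 14.3% (7.07 to 24.7 at 72 h) compared with 18%, 20.6% and 20.8% over distal peaks of the genome in the 3 Dox lists. For each of the 72 sites, words were counted only at the summit of its strongest peak. A word at the summit of a weaker peak of the site was left out. By that count 22 sites held a TEAD word, 10 an AP-1 word, 1 held both, and 41 held neither. The site with both lay in PVT1 at 234.2 kb downstream, with fold enrichments of 6.86 at 48 h and 19.0 at 72 h.

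Other words stood at few peaks of the locus. RUNX (TGTGGTT), the motif of the RUNX factors, was found at 3 of the 70 peaks at 72 h, or 4.29% (0.893 to 12) against 8.96% of distal 72 h peaks. STAT (TTCCNGGAA) was found at 0, 0, 2 and 0 peaks over the 4 lists, which at 48 h is 5.26% (0.644 to 17.7) against 2.27% of distal peaks. ETS (CCGGAAG), a word common in promoters, was found at none (exact upper limit 5.13% at 72 h), against 1.06% of distal 72 h peaks and 4.97% of all of them. The E-box (CACGTG), which MYC and MAX bind, stood at 1, 1, 0 and 3 peaks, or 4.29% at 72 h against 2.83% of distal peaks. A match is a description of the letters in a window and not a measured binding site.

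Strength did not follow closely the presence of a word at the summit of the strongest peak of a site. At 72 h the 21 sites with a TEAD word had a median fold enrichment of 8.02 (3.86 to 59.5), and the 49 without had 6.97 (2.65 to 57.2). The 10 sites with an AP-1 word had 6.42 (3.98 to 27.3), and the 60 without had 7.79. The ranges with and without a word overlapped. Of the 10 strongest sites at 72 h, 3 in PVT1 (74.8, 172.6 and 183.4 kb) held neither word at that summit. The same held for those at 589.1 kb beyond PVT1 and at 344.0 kb upstream.

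**Figure D5:**
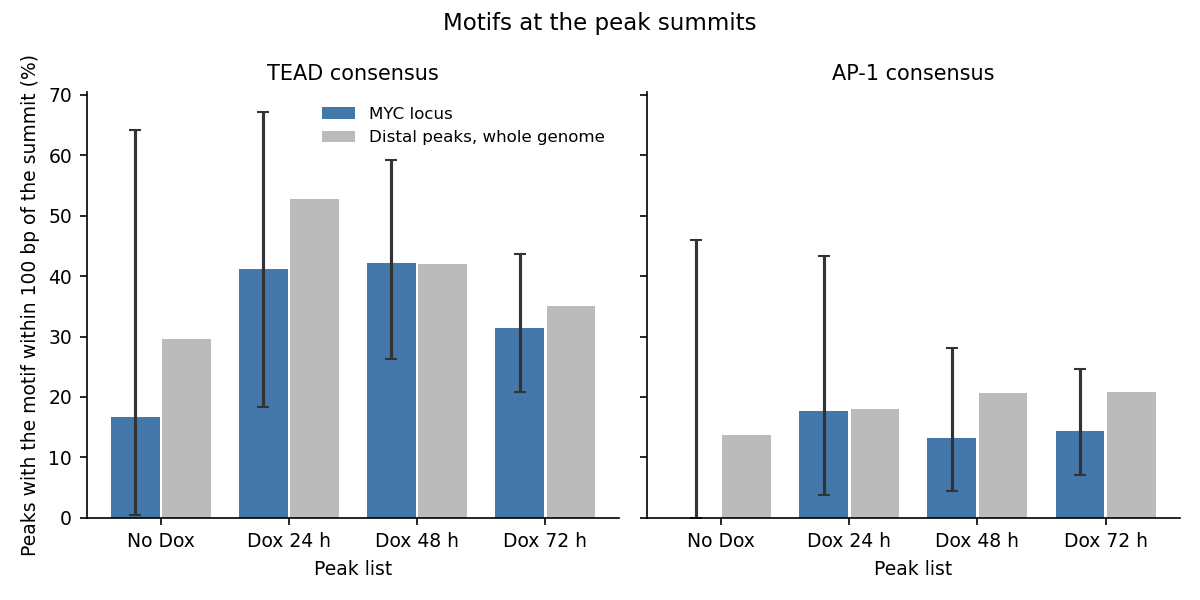
Share of peaks (y axis, %) with the TEAD (left) or AP-1 (right) consensus within 100 bp of the summit, by list (x axis), for peaks of the MYC locus with exact 95% binomial intervals and for all distal peaks of the genome. The TEAD share at the locus is 16.7%, 41.2%, 42.1% and 31.4%, and each interval includes the genome value.

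Peaks near a TSS were mostly at non-coding transcripts. Summits within 3 kb of any TSS made up 4 of 6 peaks without Dox, 7 of 17 after 24 h, 13 of 38 after 48 h and 25 of 70 after 72 h. The shares were 66.7% (22.3 to 95.7), 41.2% (18.4 to 67.1), 34.2% (19.6 to 51.4) and 35.7% (24.6 to 48.1). Over all peaks they were 71.4%, 28.9%, 26% and 43.7%, so the locus lay above the genome at 24 and 48 h and below it in the other 2 lists, in each case within its interval. Within 3 kb of a protein-coding TSS there were 1, 0, 0 and 2 locus peaks, while over the genome 64.2%, 19.1%, 16.9% and 35.5% of peaks lay there. Only 2 protein-coding genes have a TSS in the window, so few locus peaks could lie near one, and this contrast follows from gene content. Of the 72 sites, 26 lay within 3 kb of the TSS of any gene, 2 in exons, 33 in introns and 11 in intergenic sequence.

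The windows of 6 other genes were set beside that of MYC by the same rule. MYCN and MYCL, the paralogs of MYC, had 1, 0, 7 and 30 peaks and 3, 4, 12 and 45 peaks, with 1 promoter peak between them (MYCL at 72 h, 4.08). CCN1 and CCN2, matricellular genes that are standard targets of YAP and TAZ, had 3, 9, 26 and 44 peaks and 3, 2, 8 and 25 peaks. Unlike MYC, both had promoter peaks in all 3 Dox lists, with 9.09, 16.4 and 38.7 at CCN1 and 16.8, 19.9 and 37.9 at CCN2. KLF5, an epithelial transcription factor, had promoter peaks of 6.15 at 48 h and 23.7 at 72 h. RUNX1, which encodes a RUNX factor, resembled MYC in this, with promoter peaks of 4.16 without Dox and 11.9 at 72 h and none between.

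Promoter peaks at the partners, cofactors and reported targets of MYC were few at 24 h and common at 72 h. Of 13 genes of the MAX network, the dimerization partners and competitors of MYC, 4 had a peak within 3 kb of a TSS without Dox, 0 after 24 h, 1 after 48 h and 11 after 72 h. Of 15 cofactors and turnover factors the counts were 3, 0, 5 and 15, and of 14 reported targets they were 4, 0, 1 and 12. Over all protein-coding genes the shares were 9.4%, 2.55%, 9.09% and 58.4%, so few promoter peaks at 24 h were a feature of all genes as well. At 48 h the cofactors, with 33.3%, had a higher share than all genes, and the other 2 lists, with 7.69% and 7.14%, had a similar one.

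Within these lists, MAX, the obligate partner of MYC, had a fold enrichment of 4.53 without Dox and 19.1 at 72 h. MNT, a MAX-binding repressor, had 6.28 before induction, 5.79 after 48 h and 27 after 72 h. SKP2 and FBXW7, ubiquitin ligase subunits that act on the MYC protein, had 8.25 and 5.93 at 48 h and 26.5 and 12 at 72 h. Of the targets, NPM1, a nucleolar protein gene, had 4.61, 4.27 and 6.07 without Dox and at 48 and 72 h, and CDKN1A, a cell-cycle inhibitor gene that MYC represses, had 9.35 without Dox and 7.97 at 72 h. The lists were chosen with earlier results of these data known and are not independent evidence.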

How the data were processed

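TAZ and IgG ChIP-seq libraries of MCF10A cells were grouped by their titles. According to the study and the submitters' processing notes, reads were mapped to hg38 with BWA and the authors called peaks with MACS2 (false discovery rate 0.01, versions not given in the sources used here). The deposited lists give fold enrichment as a ratio with a pseudocount of 1, and −log10 p and −log10 q values computed by the authors. Fragments and background at each summit were solved from the fold enrichment and p, and all deposited p values were returned to within 0.003 in −log10 units; the solver was tested on simulated data. Peaks were merged at an overlap of 1 bp and annotated with GENCODE 44, and promoters were 3 kb around a TSS. Motifs were searched within 100 bp of summits, and for a site at the summit of its strongest peak. No test between conditions was possible. Python 3.11.15, numpy 2.4.6, pandas 2.3.3, scipy 1.17.1 and matplotlib 3.10.9 were used.

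Values in full were given for each site called by 24 h, each within 3 kb of a MYC or PVT1 TSS and the 10 strongest at 72 h. Members, gene lists and motifs were chosen with earlier results of these data known. Sequence of the locus is not reported here.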

Additional observations from a re-analysis of the deposited data

How the results depend on the processing

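With 1 library per condition, no replicate could be left out, and the values carry counting error only. No paired analysis was possible because no group had replicates. Of the 75 recomputed values, 58 were counted as the same and 17 as moved. Shares were judged by their interval, and counts and the median ratio by a factor of 1.5. Ranks were held to a narrower margin, so 88.9 against 91% counted as moved. A window of 500 kb in place of 1 Mb left 9, 22 and 43 peaks in the 24, 48 and 72 h lists. With that window, the share of protein-coding genes with fewer peaks than MYC was 89, 99.9, 99.7 and 92.5% without Dox and at 24, 48 and 72 h, in place of 79.6, 99.99, 99.9 and 88.9%. With a −log10 q of at least 5 it was 74% without Dox and 91% at 72 h. With local background set to the coverage of the list, chosen after seeing the data, it was 70.7% without Dox and 91% at 72 h. The 72 h TEAD share of 31.4% was 20% within 50 bp of the summit and 45.7% with the core CATTCC, and the AP-1 share of 14.3% was 27.1% within 200 bp. Counting only protein-coding TSS, the promoter shares were 0, 0 and 2.86% at 24, 48 and 72 h. Summit matching within 250 bp, a reciprocal overlap of 50% and scaling to the lowest coverage moved no count of sites by over 1.5 times. The median ratio of 2.05 from 48 to 72 h ranged from 2.05 to 2.2. The cause of these shifts was not tested. Weak peaks missing from the No Dox and 24 h lists, the shallowest, cannot be told apart from unbound sites.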
